A study of Homo sapiens with 2 samples.

Results

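In the comparison of 2 acute myeloid leukemia (AML) cell lines, 182 CpG-dense regions of 1 kb were unmethylated in AML5 and methylated in OCI-AML3. They were selected on the measured levels themselves. The autosomes were divided into non-overlapping 1 kb bins, and those where both lines had more than 5 reads at 20 or more CpG dinucleotides were kept (237104 dense bins). The level of a bin was the mean over its CpG dinucleotides of methylated calls divided by all calls, and a bin was chosen when this mean was below 0.2 in AML5 and above 0.6 in OCI-AML3. The chosen bins, called AML5-unmethylated bins here, were 0.0768% of the dense bins. The opposite pattern, below 0.2 in OCI-AML3 and above 0.6 in AML5, was found in 1195 bins (0.504%), which are called mirror bins. Because the levels chose the bins, the levels and the difference between the lines are a description and carry no test.

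Both are established human leukemia lines, each profiled by whole-genome bisulfite sequencing of 1 library with no replicate culture. OCI-AML3 is labelled DNMT3A mutant and carries a missense mutation on 1 of its alleles. AML5, labelled OCI-AML5 in its sample record, is labelled DNMT3A wild type. Neither line received a treatment, and both were grown in DMEM with serum. Genotype and line cannot be told apart, since each genotype is represented by 1 line. The deposited tables hold numbers of calls and not bases, so the DNMT3A mutation itself could not be looked up. The myeloid identity of the lines was checked at transcription start sites (TSS). Within 1 kb of the TSS, CpG levels were 5.12% in OCI-AML3 and 5.18% in AML5 at SPI1, which encodes the myeloid factor PU.1, and 12.3% and 14.3% at the leukocyte gene PTPRC. The T-cell gene CD3E stood at 84.4% and 93.9%, whereas MPO, a granule enzyme of myeloid precursors, was also methylated in both lines (88.6% and 85.0%).

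CpG dinucleotides are rare in most of the human genome because methylated cytosine is lost over evolutionary time by deamination. They remain frequent in CpG islands, many of which overlie gene promoters and are free of methylation in most cell types. In leukemias and in cultured cell lines, a subset of islands gains methylation, and a promoter whose island is densely methylated is usually silent. DNMT3A is one of the enzymes that place new methyl groups on CpG dinucleotides, and DNMT1 copies existing methylation at replication. No expression values were analysed here.

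Windows of 200 bases from 5 AML5-unmethylated bins are shown to make visible how CpG-rich these regions are and where they lie. Each is the window of its bin with the most CpG dinucleotides that touches no annotated UTR, on the + strand of GRCh37, 5′ to 3′, with every CpG in capitals. The H3C3 window (chr6:26045640-26045839) is coding sequence of a histone H3 gene, the ZNF160 window (chr19:53606142-53606341) lies in an intron near the start of the gene, and the SGCE window (chr7:94286189-94286388) lies in an intron of the neighboring PEG10. The CEBPE (chr14:23588081-23588280) and GFI1 (chr1:92946250-92946449) windows lie in exons of the 2 myeloid factor genes.
H3C3: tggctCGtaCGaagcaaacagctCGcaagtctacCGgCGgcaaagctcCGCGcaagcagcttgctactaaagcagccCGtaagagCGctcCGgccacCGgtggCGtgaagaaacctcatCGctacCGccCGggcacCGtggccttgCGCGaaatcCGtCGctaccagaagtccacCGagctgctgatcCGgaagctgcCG
ZNF160: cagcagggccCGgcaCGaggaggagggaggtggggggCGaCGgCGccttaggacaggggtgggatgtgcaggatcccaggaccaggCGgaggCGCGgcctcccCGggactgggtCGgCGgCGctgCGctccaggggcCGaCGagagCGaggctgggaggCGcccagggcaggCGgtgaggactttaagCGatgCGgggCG
SGCE: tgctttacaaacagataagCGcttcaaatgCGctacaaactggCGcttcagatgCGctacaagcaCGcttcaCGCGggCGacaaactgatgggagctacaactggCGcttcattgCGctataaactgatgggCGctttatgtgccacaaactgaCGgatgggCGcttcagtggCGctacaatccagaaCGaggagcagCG
CEBPE: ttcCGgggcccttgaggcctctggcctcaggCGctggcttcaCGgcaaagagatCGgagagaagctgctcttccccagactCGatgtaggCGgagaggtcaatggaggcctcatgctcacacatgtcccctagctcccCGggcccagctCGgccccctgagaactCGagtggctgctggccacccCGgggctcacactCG
GFI1: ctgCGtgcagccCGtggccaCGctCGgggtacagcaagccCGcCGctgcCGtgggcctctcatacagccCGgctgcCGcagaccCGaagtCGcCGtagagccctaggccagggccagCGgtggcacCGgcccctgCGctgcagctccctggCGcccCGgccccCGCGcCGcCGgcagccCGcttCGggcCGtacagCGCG
The windows hold 23, 21, 16, 11 and 26 CpG dinucleotides in this order, and all of them passed the read minimum in both lines. Over the 23 CpG dinucleotides of the H3C3 window OCI-AML3 averaged 97.1% (range 91.0–100%) and AML5 0.181% (0–1.69%). The ranges of the 2 lines were separate in all 5 windows, which the choice of the bins by their levels favors. The SGCE window differed from the others in OCI-AML3, where its 16 CpG dinucleotides lay between 59.7% and 68.3% (mean 64.2%, SD 2.43), against 0–5.77% in AML5. The ZNF160 window ranged widely in OCI-AML3 (34.0–98.2%, mean 75.2%) and stayed at 0–3.85% in AML5. CEBPE (87.9% and 19.6%) and GFI1 (89.8% and 12.9%) kept some methylation in AML5.

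Across the 182 AML5-unmethylated bins, OCI-AML3 had a median of 74.9% (range 60.1–95.4%). AML5 had a median of 11.8% (0.0791–19.9%), and the bins differed by 64.1 percentage points at the median (42.6–94.9). Near-complete methylation or its near-complete absence was the exception. In OCI-AML3, 17 bins were at or above 0.9 and 61 lay between 0.6 and 0.7. In AML5, 41 bins were below 0.05 and 102 lay between 0.1 and 0.2. The difference exceeded 80 points in 21 bins and was under 50 points in 14.

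At the thresholds the pattern was continuous. The bins just inside the AML5 limit had their nearest TSS at FOXL1, HOXA13 and JMY (each 19.9% in AML5), and those just outside lay nearest to EPHA3 (20.03%), FOXD1 (20.04%) and SCCPDH (20.07%). At the OCI-AML3 limit, the bins just inside lay nearest to FOXA1 (60.1%), CCKBR (60.1%) and NR2F2 (60.5%), and those just outside nearest to DDX6 (59.98%), LMLN (59.9%) and PDZRN4 (59.6%).

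Single CpG dinucleotides followed the bin means unevenly. The 182 bins held 10349 CpG dinucleotides in the reference, of which 10035 (97.0%) passed the read minimum. In OCI-AML3, 70.9% of these had a level above 0.66, 24.4% were intermediate (0.2–0.66) and 4.78% were below 0.2. In AML5, 84.3% were below 0.2, 13.0% were intermediate and 2.63% were above 0.66, and 45.2% had no methylated call at all. The level was higher in OCI-AML3 at 96.8% of the CpG dinucleotides. The SD over CpG dinucleotides within a bin had a median of 23.2 points in OCI-AML3 and 15.5 points in AML5. The rule held the AML5 mean below 0.2, and means that close to the lower limit of the scale leave less room for spread. Whether the methylated state varies more from CpG to CpG was therefore not tested.

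The AML5-unmethylated bins were CpG-richer than dense bins in general. They held a median of 49.5 CpG dinucleotides, against 26 in all dense bins, 31 in mirror bins and 63 in the 18293 dense bins below 0.2 in both lines. Their ratio of observed to expected CpG was 0.676 at the median, against 0.422, 0.474 and 0.739 in the same order, and their GC content was 57.7% against 52.4%, 54.7% and 60.4%. In sequence they therefore stood between the mirror bins and the islands that were unmethylated in both lines. The GC box (GGGCGG, either strand), a motif of many island promoters, was present in 76.4% of them, in 65.3% of mirror bins, in 86.5% of the bins unmethylated in both lines and in 51.8% of all dense bins. The cyclic AMP response element (TGACGTCA, a palindrome) was in 0 of the 182 bins and in 0.964% of all dense bins. It was in 1.59% of mirror bins and 2.91% of bins unmethylated in both lines. At shares this low, 0 in 182 bins is not read as a lack. The ETS core (CCGGAAG) was in 17.0% against 8.77% of all dense bins, and the RUNX core (TGTGGT) in 33.5% against 48.8%. NRF1 and E-box motifs were also more frequent than in all dense bins, and YY1 and PU.1 motifs less frequent. A motif match is a description of letters in the window and not a binding site.

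In their distance to gene starts, too, the AML5-unmethylated bins stood between the mirror bins and the islands unmethylated in both lines. Of the 182, 74 (40.7%) had their center within 1 kb of the TSS of a protein-coding gene and 91 (50.0%) within 2 kb, against 9.63% and 14.1% of all dense bins 16.9% and 28.4% of mirror bins, and 64.2% and 74.6% of the bins unmethylated in both lines. The TSS itself lay inside 47 bins, a further 62 overlapped an exon, 33 lay in introns alone and 40 were intergenic. The bins also had a distal fraction by the most upstream TSS of each gene. Another 33 lay 2–10 kb from the nearest such TSS, 27 lay 10–50 kb away and 31 (17.0%) more than 50 kb away. With the TSS of any coding transcript, 62.1% of the 182 bins lay within 1 kb of one. That share was not computed for all dense bins or the other sets, so it has nothing to be read against. Bins that held a TSS had a median level of 9.29% in AML5 and intergenic bins 13.1%, while the OCI-AML3 medians were 74.7% and 76.4%.

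Every autosome had AML5-unmethylated bins, from 0.0187% of the dense bins of chromosome 17 to 0.139% of those of chromosome 14. Chromosome 19 held the most by number (18 bins), but its share of 0.0953% was near the 0.0768% over all dense bins. Most of the bins stood alone: the 182 bins formed 159 runs, of which 138 were single bins, 19 were pairs and 2 were runs of 3. This was not particular to them, since the 1195 mirror bins formed 1062 runs. A run of 3 (chr19:3178001-3181000, 168 CpG dinucleotides) covered S1PR4, a sphingosine 1-phosphate receptor of blood cells, and averaged 80.7% in OCI-AML3 and 5.65% in AML5.

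The order of the lines turned within a short distance of the bins. At 1 kb upstream in genome coordinates OCI-AML3 averaged 64.8% and AML5 45.3%, the same order as in the bins, and at 2 kb 60.6% and 67.2%. The adjoining bins were not all independent of the rule, since 23 of those at 1 kb on a given side were AML5-unmethylated bins themselves. At 10 kb on either side the means were 61.1% and 79.4%, and 62.1% and 82.9%. From 2 kb outward OCI-AML3 was therefore the less methylated line on average. The mean difference at 10 kb (OCI-AML3 minus AML5) was −18.3 and −20.8 points, against −8.66 and −9.24 points around the mirror bins. The OCI-AML3 level was the higher one in 29 of 162 (17.9%) and 15 of 162 (9.26%) flanking bins at 10 kb, against 21.2% and 20.4% around the mirror bins. In AML5 the stretch of adjoining 1 kb bins below 0.5 around each chosen bin had a median of 2 kb (1–18 kb). It was the chosen bin alone in 46 cases and 5 kb or longer in 26. The same stretch in OCI-AML3 around the 1195 mirror bins also had a median of 2 kb (1–21 kb). There it was the bin alone in 337 cases and 5 kb or longer in 265.

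Over the wider surroundings, 2–50 kb on either side, the median around the AML5-unmethylated bins was 60.9% in OCI-AML3 and 79.5% in AML5, and around all dense bins 70.9% and 77.9%. The surroundings were lower in OCI-AML3 for 172 of the 182 bins (94.5%), the same as the share over all dense bins (94.9%). Some of the bins had surroundings of low mean level in OCI-AML3. The OCI-AML3 surroundings were below 50% for 56 of the 182 bins (30.8%), against 7.07% of all dense bins and 6.03% of mirror bins. For 6 bins the surroundings were below 50% in both lines. For 26 bins (14.3%) the surroundings were below 50% in OCI-AML3 and above 80% in AML5, against 0.378% of all dense bins (895) and 0.0837% of mirror bins (1 of 1195). Whether such low levels formed continuous domains was not tested. These limits of 50% and 80% were chosen after the surroundings had been seen.

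These 26 bins had a median level of 70.2% in OCI-AML3, inside surroundings with a median of 45.9%, and of 5.53% in AML5, inside surroundings with a median of 86.8%. This contrast with the surroundings is fixed by how the 26 were picked. Of the 26, 23 lay within 2 kb of a TSS. At CCSER1, a large gene in a fragile region of chromosome 4, the 2 bins stood at 68.1% and 75.1% in OCI-AML3 and 3.598% and 2.47% in AML5, with surroundings of 41.4% and 92.2% around the first. At GPC6, which encodes a cell-surface heparan sulfate proteoglycan, the levels were 76.4% and 67.1% against 3.13% and 3.02%. At PTPRG, a receptor tyrosine phosphatase gene, they were 66.7% and 62.1% against 0.965% and 6.44%. APP, the amyloid precursor protein gene, had the lowest AML5 level of all 182 bins (0.0791%, 94 CpG dinucleotides), where OCI-AML3 stood at 61.0%. The adjoining bin with its TSS stood at 72.5% and 9.84%. At CDH7, a classical cadherin gene, the 2 bins stood at 76.1% and 82.0% against 16.5% and 7.28%.

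By gene, 15773 of the 19222 autosomal protein-coding genes had a dense bin within 2 kb of the TSS, and 86 of them (0.545%) had an AML5-unmethylated bin there. Mirror bins were found at 361 genes (2.29%), and no gene had both. The median difference over genes (OCI-AML3 minus AML5, mean of the dense bins near the TSS) was −3.80 points, with 335 genes more than 20 points higher and 1178 more than 20 points lower. The counts of the gene groups below are to be read against these shares, and no test was run on them.

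Among bins within 2 kb of a TSS, the largest differences were at replication-dependent histone genes of the cluster on chromosome 6, which supply core histones during DNA synthesis. Of 77 histone genes with a dense bin, 4 (5.19%) had an AML5-unmethylated bin and 1 had a mirror bin. The 4 genes form neighboring pairs, and the genes of a pair share the same 2 bins. With no limit on distance, 507 dense bins had a histone gene as their nearest. Of these, 4 (0.789%) were AML5-unmethylated and 4 (0.789%) were mirror bins, against 0.0768% and 0.504% of all dense bins. The bin with the start of H3C3 stood at 95.2% ± 5.55 in OCI-AML3 and 0.313% ± 0.6995 in AML5 (SD over 48 CpG dinucleotides), the widest gap of the 182 bins (94.9 points). The adjoining bin, upstream of H2BC3, stood at 94.7% and 5.90%. The divergent neighbors H3C8 (start in a bin at 91.4% and 0.926%) and H2BC10 (nearest chosen bin at 89.7% and 1.19%, 659 bp upstream) showed the same pattern. The edges differed between the pairs. The dense bin with the start of H2BC10 itself was low in both lines (3.45% and 1.17%), and the dense bin 2 kb beyond H3C3 was high in both (92.2% and 92.5%). The histone list as a whole did not move this way: its median difference was −1.80 points, with 5 genes more than 20 points higher in OCI-AML3 and 2 more than 20 points lower. Histone genes have near-identical copies, and reads shared between copies make these levels less certain than those of single-copy genes.

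Zinc finger genes were the most numerous group. Of 484 genes named ZNF with a dense bin, 9 (1.86%) had an AML5-unmethylated bin and 4 (0.826%) a mirror bin. Most of this family encodes KRAB zinc finger proteins, repressors of transposable elements that lie in clusters on chromosome 19. ZNF160 stood at 70.0% in OCI-AML3 and 0.226% in AML5, ZNF568 at 81.8% and 5.11% (a bin shared with ZNF829), ZNF347 at 69.9% and 5.76%, and ZNF730 at 73.4% and 6.23%. ZNF713, on chromosome 7, stood at 63.1% and 2.62%. ZNF471 (76.3% and 10.4%), ZNF610 (78.8% and 18.0%) and ZNF492 (71.8% and 19.5%) kept more methylation in AML5. ZFP82, a gene of the same kind outside that naming rule, stood at 86.6% and 9.29%. With the symbols ZFP included and at any distance, 16 of the 182 bins had a zinc finger gene as their nearest, 14 of them on chromosome 19, which were most of the 18 bins of that chromosome. These 16 were 8.79% of the bins, against 2.55% of all dense bins and 1.84% of mirror bins. A bin in an exon of ZNF808, 8595 bp from its TSS and named after its values were seen, stood at 94.0% and 5.91%. The median difference of the ZNF list was −2.62 points, with 28 genes more than 20 points higher and 18 more than 20 points lower in OCI-AML3.

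Imprinted genes normally have 1 parental copy methylated at a control region. Within 2 kb of the TSS, 2 of 38 such genes (5.26%) had an AML5-unmethylated bin and none had a mirror bin. Both, SGCE and PEG10, share 1 bin, which lies inside an intron of PEG10 and 616 bp upstream of the SGCE TSS. It stood at 65.1% in OCI-AML3 and 12.1% in AML5. The dense bins beside it stood at 55.5% and 14.1% on one side and 54.1% and 0.312% on the other. A bin in an exon of MEST, 5488 bp from its most upstream TSS and close to the antisense gene MESTIT1, stood at 63.0% and 6.05%. These 2 bins had the most even intermediate levels. Of the 61 bins below 0.7 in OCI-AML3, they were the 2 whose SD over CpG dinucleotides was under 10 points (5.198 and 9.64), against a median of 26.9. In AML5 the SDs were 16.2 and 8.995. The depth was higher in OCI-AML3 at both, 137 against 72.3 reads per CpG at SGCE and 83.1 against 44.4 at MEST, and the part of copy number in these levels was not tested. MEST was named after its values were seen. With no limit on distance, 1124 dense bins had an imprinted gene as their nearest. Of these, 2 (0.178%) were AML5-unmethylated and 3 (0.267%) were mirror bins, against 0.0768% and 0.504% of all dense bins.

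Among genes of blood development, CEBPE, a factor of late granulocyte maturation, was the 1 of 41 myeloid transcription factor genes with an AML5-unmethylated bin within 2 kb, and 2 of the 41 had a mirror bin. The bin, in exonic sequence 965 bp downstream of the TSS, stood at 83.4% ± 14.9 in OCI-AML3 and 13.1% ± 13.8 in AML5 (SD over 25 CpG dinucleotides). Away from the TSS the level in AML5 rose gradually, with 64.5% in the preceding bin and 93.7% in the one before it, while OCI-AML3 stood at 93.9% and 91.4%. The start of CEBPE did not share the difference: the 5 CpG dinucleotides within 200 bp of the TSS had levels of 0–9.38% in OCI-AML3 and 0% in AML5. GFI1, a transcriptional repressor needed in neutrophil development, had 2 bins inside the gene, 5982 and 6982 bp from its TSS. They stood at 85.7% and 84.1% in OCI-AML3 and 8.06% and 15.3% in AML5. The GFI1 promoter side differed from them: the next dense bin was at 21.4% and 0.313%, and the one after it at 0.186% and 0.190%. Farther from their most upstream TSS, bins within FLI1, an ETS factor gene (88.9% and 17.8%, 34070 bp), and nearest to ID2, an inhibitor of helix-loop-helix factors (71.0% and 2.20%, 103475 bp), were chosen too. With no limit on distance, 1493 dense bins had a myeloid transcription factor gene as their nearest. Of these, 5 (0.335%) were AML5-unmethylated and 16 (1.07%) were mirror bins, against 0.0768% and 0.504% of all dense bins. None of the 39 myeloid surface, receptor and granule genes and none of the 28 lymphoid genes with a dense bin had an AML5-unmethylated bin, whereas 3 and 2 of them had a mirror bin. HLA-F, a non-classical class I antigen gene, was the 1 of 20 antigen presentation genes with such a bin (76.9% and 17.2%), at depths of 47.9 and 15.9 reads per CpG. HLA genes are polymorphic and similar to each other, which makes this value less certain.

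Of 252 HOX, other homeobox and paired box, forkhead, SOX, GATA and T-box genes with a dense bin, 2 (0.794%) had an AML5-unmethylated bin within 2 kb of the TSS. HOXC4, a HOX cluster gene, had a bin 1785 bp from its most upstream TSS at 72.2% and 19.6%, and PAX3, a paired box factor of neural crest and muscle, had one at 72.5% and 17.8%. They were 1 of 39 HOX genes and 1 of 128 other homeobox and paired box genes with a dense bin, and 4 and 1 of the same genes had mirror bins. None of the 85 forkhead, SOX, GATA and T-box genes had an AML5-unmethylated bin within 2 kb. At any distance, 14 of the 182 bins had a gene of these 3 groups as their nearest, among them DLX1, FOXD3, LHX2, SIX6, TBX20, PAX7 (2 bins) and HOXA13 (2 bins). They were 7.69% of the bins, against 2.85% of all dense bins and 3.35% of mirror bins. Their AML5 levels ran from 12.9% to 19.9% (median 17.3%), and 0 of 14 were below 5%. Of the 16 zinc finger bins (median 11.6%), 2 were below 5%. Of the 152 bins of neither kind (median 10.4%), 39 were below 5%. The rule chose all of these bins by their AML5 level, so the counts are a description and carry no test. The surroundings of the 14 bins had medians of 51.3% in OCI-AML3 and 57.7% in AML5, against 70.9% and 77.9% around all dense bins. The surroundings of all dense bins nearest to genes of these groups were not computed. The bin 12790 bp upstream of HOXA13, for example, stood at 92.6% in OCI-AML3 and 19.9% in AML5, within surroundings of 21.6% and 33.6%.

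The remaining genes with the largest differences near a TSS had varied roles. TUSC1, a candidate tumor suppressor gene, had 2 bins, at 84.6% and 84.7% in OCI-AML3 and 0.985% and 5.56% in AML5. NAPRT, the first enzyme of NAD synthesis from nicotinic acid, stood at 90.3% and 6.50%. MICU3, a regulator of mitochondrial calcium uptake, had 2 bins at 87.3% and 79.8% against 8.25% and 3.51%. ARHGEF10, a guanine nucleotide exchange factor gene, had 2 at 89.1% and 74.96% against 5.97% and 9.90%. At TUSC1, MICU3 and ARHGEF10 these were both of the 2 dense bins within 2 kb of the TSS. NKD2, which antagonizes Wnt signaling through Dishevelled, was the 1 of 22 Wnt antagonist genes with such a bin (60.6% and 3.58%), at depths of 72.7 and 29.6 reads per CpG. CDH7 was the 1 of 81 cadherin and protocadherin genes. No AML5-unmethylated bin was found within 2 kb of the TSS of the 5 CDK inhibitor genes, 34 tumor suppressor and DNA repair genes, 60 germline genes, 217 ion channel and receptor genes, 101 matrix genes or 62 interferon and innate sensor genes that had a dense bin.

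Some strong differences lay more than 2 kb from the most upstream TSS of any coding gene. Whether the bins named here lie at another coding TSS was not looked up. A pair of bins in exonic sequence of SH3PXD2A, a scaffold protein of podosomes, stood at 91.8% and 89.6% in OCI-AML3 and 2.59% and 1.09% in AML5. A pair at the non-coding gene TPTEP1 on chromosome 22 stood at 87.8% and 82.5% against 0.681% and 1.14%, with 144 CpG dinucleotides in the first. Within PRDM8, a PR-domain zinc finger gene, 2 bins 13467 and 14467 bp from the most upstream TSS stood at 91.8% and 95.2% against 18.8% and 7.72%. These genes were named after their values were seen. Counting TSS of all annotated genes, non-coding ones included, 102 of the 182 bins (56.0%) lay within 1 kb of one, against 15.8% of all dense bins, 27.8% of mirror bins and 73.5% of the bins unmethylated in both lines.

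The depth behind these levels was ample in most bins but not equal between lines. The median number of reads per CpG over the 182 bins was 46.5 for OCI-AML3 and 37.05 for AML5, against 42.3 and 37.3 in all dense bins, and the smallest bins had 350 and 322 calls. In 7 bins the depth in OCI-AML3 was more than 2 times that in AML5. The most uneven lay far from coding genes on chromosome 3, nearest to LMLN (62.1 and 12.9 reads per CpG, levels 89.1% and 2.14%). For the H3C3 bin the share of methylated calls was 95.4% in OCI-AML3 (Wilson 95% interval 94.6–96.1%) and 0.286% in AML5 (0.151–0.543%), and for CEBPE 84.5% (81.8–86.8%) and 14.4% (12.1–17.0%). These intervals cover counting error alone. Calls from 1 read are not independent, and the spread between cultures of a line is not known.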

How the data were processed

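The authors made bisulfite libraries, sequenced them in pairs, aligned the reads with Bismark and Bowtie 0.12.8 to hg19 (GRCh37) and deposited 1 table per line of raw counts of methylated and unmethylated calls at 28217448 CpG dinucleotides. Both strands were already added. Removal of duplicate reads is not given in the sources used here. Totals were 902802339 calls in OCI-AML3 and 894828667 in AML5. The column of methylated calls was settled from mitochondrial DNA (0.169% and 0.101% methylated). The listed positions fell on CG of the GRCh37 reference at all 26752702 autosomal entries.

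TSS were the most upstream bases of protein-coding genes in GENCODE 44 lifted to GRCh37. No test was run: each line has 1 library, and the levels chose the bins. Intervals of methylated calls are Wilson 95% intervals. Those used as limits for the alternatives are an exact binomial interval for the share near a TSS and rank-based intervals for medians. The code was tested on simulated counts. The bins, gene lists and rules were chosen with earlier results of these data known. Named genes were those with the 10 largest differences near a TSS, the 10 genes with the most bins, listed genes with a bin within 2 kb, the runs of 3 bins and bins at the thresholds. 1 gene that the rule names is not reported here. Others were named after their values were seen, as were the surroundings' limits. Alternatives changed CpG and read minimums, averaging, bin size, offset, thresholds, depth limits, TSS and flank definitions. Python 3.11.15, numpy 2.4.6, scipy 1.17.1, pandas 2.3.3, pysam 0.24.0 and matplotlib 3.10.9 were used.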

Additional observations from a re-analysis of the deposited data

How the results depend on the processing

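The 182 AML5-unmethylated bins depended on the rule. With levels below 0.1 and above 0.7 there were 50 bins near 41 genes (158 genes in the definition used), and with levels below 0.3 and above 0.5 there were 627 near 496. Bins of 2 kb gave 74 bins near 70 genes, and bins of 500 bp gave 318. The mirror bins changed likewise from 1195 to 425, 3128 and, at 2 kb, 552, and were 3153 with at least 10 CpG dinucleotides per bin and 642 with at least 30. Under each of the 10 alternative rules they outnumbered the AML5-unmethylated bins, by 4.08 to 11.8 times (6.57 in the definition used). The share within 1 kb of a coding TSS (40.7%, exact 95% interval 33.5–48.2%) was 29.6% with 10 CpG dinucleotides, 50.7% with 30, 33.3% with the looser levels, 62.1% with the TSS of any transcript and 56.0% with all annotated genes. That interval counts the bins as independent, although 44 of the 182 adjoin another chosen bin. It served only as a limit for calling the share changed and does not measure spread between cultures. The unmethylated stretch in AML5 shrank from 2 kb to 1 kb with a flanking level of 0.2. The other 30 alternative values stayed within 1.5 times the count or within the interval of the share. For the medians of depth and stretch among them, the limit was a rank-based 95% interval of the median. Shifting the bins by 500 bp left 108 of the 182 (59.3%) overlapped by a chosen bin, and counting every call once left 163 (89.6%). No paired analysis was possible because each line has 1 library. Duplicates, copy number and culture-to-culture spread were not analysed here.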
